A study of Rattus norvegicus with 4 samples.

Results

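The DNA replication machinery described here is a list of 45 genes for proteins that mark, license and fire replication origins, unwind DNA and copy it. A gene was counted as a member when a non-control probe on the array carried its listed symbol as the probe's gene name. This found 44 of the 45 genes, out of 19300 genes with a symbol on the array, and 61 probes. The exception was Ticrr, the treslin protein that helps load Cdc45 at origins. Its probe carries a transcript identifier as gene name and was matched through the probe's description, so its values are given once and it is left out of every count.

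NR8383 is a macrophage line set up from cells washed out of the lung of a normal rat. All 4 samples form 1 group, the submerged control, with no added agent named in the labels. The cells had gone through 20 passages and grew partly attached and partly floating in DMEM with 15% heat-inactivated serum, 2 mM glutamine, antibiotics and an antifungal. The labels give 4 h of submerged incubation in the design text and 48 h after seeding in the treatment protocol, and which applies was not settled. The design text calls the samples biological replicates of this 1 line. With 1 group, the data answer which members the cells expressed and how far replicate cultures differed, and no condition can be compared with another.

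A cell copies its genome once per cycle in ordered steps. The origin recognition complex marks origins, Cdc6 and Cdt1 load the ring of MCM proteins there, and the kinase of Cdc7 and Dbf4 with Cdc45 and the GINS complex turns the ring into a moving helicase. Polymerase alpha with primase starts each strand, polymerases delta and epsilon extend it with the clamp Pcna, RPA covers the single strands, and Fen1, RNase H2 and Lig1 process and join the fragments of the lagging strand. Alveolar macrophages divide rarely in the resting lung and can renew themselves there, whereas a continuous line such as NR8383 divides in culture.

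Many of these genes are known targets of E2F factors, which bind near the start of S phase genes. The promoters of the MCM helicase genes are shown because all 5 of those with a sequence in the RefSeq promoter table of GRCr8 (250 bases before to 50 after the start) held a match to the E2F words TTTCCCGC, TTTGGCGC, TTTCGCGC or TTTGCCGC on either strand. Each stretch is written 5′ to 3′ in the gene's direction, with the matched words in capitals and the rest in lower case.
Mcm2 (chr4:122918082-122918123, minus strand): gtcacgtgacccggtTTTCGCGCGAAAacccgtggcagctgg
Mcm3 (chr9:30733717-30733767, minus strand): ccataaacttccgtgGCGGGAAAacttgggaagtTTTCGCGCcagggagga
Mcm5 (chr19:13488585-13488827, plus strand): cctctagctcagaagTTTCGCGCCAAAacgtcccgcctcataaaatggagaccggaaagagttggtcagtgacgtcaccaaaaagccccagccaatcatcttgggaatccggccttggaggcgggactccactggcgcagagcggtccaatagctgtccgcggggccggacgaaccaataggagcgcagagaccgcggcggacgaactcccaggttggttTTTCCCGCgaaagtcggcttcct
Mcm6 (chr13:42404465-42404506, minus strand): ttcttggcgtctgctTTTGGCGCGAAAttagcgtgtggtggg
Mcm7 (chr12:22163208-22163426, minus strand): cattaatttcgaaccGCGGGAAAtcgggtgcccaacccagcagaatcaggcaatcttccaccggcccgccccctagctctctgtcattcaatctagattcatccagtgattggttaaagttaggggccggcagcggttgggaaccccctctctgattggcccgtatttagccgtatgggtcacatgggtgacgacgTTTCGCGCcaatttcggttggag
Counting the first base of the gene as position 1, with the base before it as -1, these stretches run from -29 to 13 in Mcm2, from -21 to 30 in Mcm3, from -228 to 15 in Mcm5, from -154 to -113 in Mcm6 and from -248 to -30 in Mcm7. In Mcm2 and Mcm6, and in the upstream match of Mcm5, a word on each strand overlaps its partner and the pair reads as 1 longer run of capitals. Mcm3 has a word that begins at -6 and runs across its start and another that begins at 14, and Mcm5 was the member with the most words, at 3.

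Of the 44 members, 38 had a promoter in the table, and 18 of them (47.37%) held an E2F word, against 4.367% of the 8358 promoters of detected genes and 2.139% of all 33469 promoters. Genes of the other lists described further on, detected or not and with the meiotic list left out, held a word in 15 of 78 promoters (19.23%). Besides replication factors, those lists hold S phase regulators, repair and translesion polymerases and factors of mitochondrial DNA replication. By role, a word was found in 4 of 6 promoters of the licensing genes, 3 of 5 of polymerases delta and epsilon and 2 of 7 of helicase activation. The share was 1 of 6 for the clamp and its loader and 1 of 4 for polymerase alpha and primase. It was 1 of 2 for the RPA genes and 1 of 3 for the genes that finish lagging strand fragments. A single word was held by 10 members, and 8 held 2 words or more. Of the 27 words in all, 11 began within 100 bases before the start and 9 began after it, and 1, in Mcm7, overlapped a CCAAT box.

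Other promoter words were less uneven. CCAAT, the box bound by NF-Y, was in 21 member promoters (55.26%), against 38.85% of those of detected genes. The Sp1 word GGGCGG was in 24 (63.16%) against 61.39%, and TATAAA, the TATA box, in 1 (2.632%) against 7.215%. Base composition was nearly the same, at 59.87% G or C in member promoters and 60.25% in those of detected genes. A match describes letters in this window and shows no binding, and no test was made of these shares, for which the words were chosen with the members in view.

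All 44 members were expressed above background in every replicate. The scanner software marks spots that are well above background. A probe with this mark on over 0.5 of its spots counts as detected there, and a gene needs 1 such probe on each of the 4 arrays. By this rule 44 of 44 members were detected, against 55% of the 19300 named genes (10608). Of the 61 member probes, 57 were detected on all arrays. The count for the members was 41 of 44 when every probe of a gene had to be detected, against 46.8% of named genes. With a laxer mark of the software, a positive signal significantly above background, it was 44 of 44 against 65.6%. Most members, 31, have 1 probe, and 49.9% of all named genes with 1 probe were detected. The percentages describe the array as a whole, whose probes include many genes of other tissues.

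The level of a gene below is the log2 processed signal of its brightest detected probe minus the 75th percentile of that array, so 0 is the signal that 75% of spots do not exceed. That percentile was 1317, 1489, 1179 and 958 fluorescence units on replicates 1 to 4. Probes differ in how well they capture their RNA, so single levels are compared between replicates of a gene and not between genes. As a description of probe signal alone, which ranks no gene, 22 of 44 members (50%) had a mean level above the percentile, against 37.2% of detected genes. The median member lay at -0.0028 log2 units and the median detected gene at -0.868. All means are over 4 replicates with their SD.

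**Figure D1:**
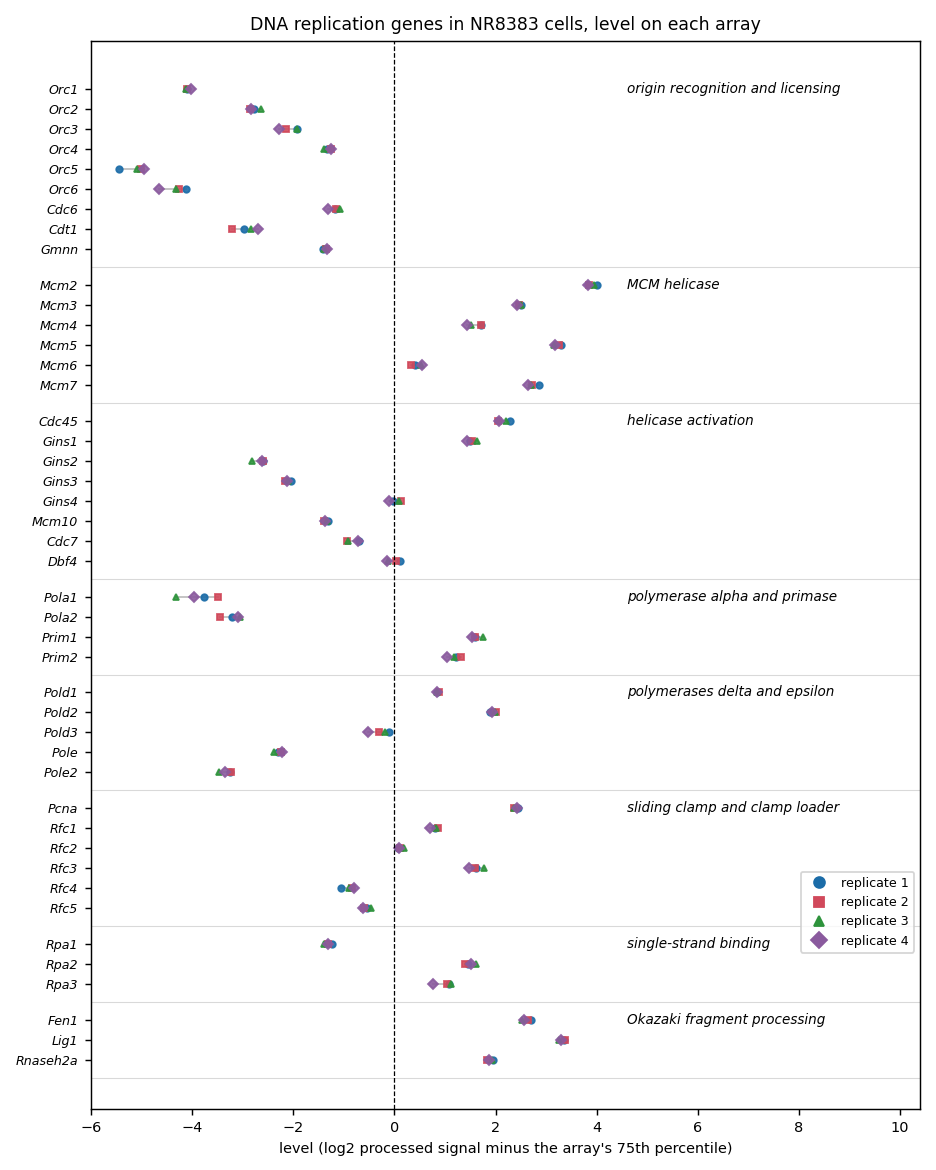
Level of each DNA replication gene on replicates 1 to 4 (x axis, log2 units relative to the 75th percentile of the array, dashed line at 0), grouped by role, with a grey bar over the range. The 4 points of a gene nearly coincide for most genes, Pola1 spreads widest (-4.33 to -3.49), and the 6 MCM helicase genes lie right of the line.

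The 9 genes of origin recognition and licensing were all detected, and all lay below the 75th percentile. Orc1, the large ATPase subunit, lay at -4.10, -4.10, -4.11 and -4.02 on replicates 1 to 4 (probe on rn4 chromosome 5, 129896830 to 129896889). Orc5 lay at -5.44, -5.01, -5.08 and -4.95 and Orc6 at -4.13, -4.26, -4.33 and -4.66. Orc1 was therefore nearly flat, while Orc5 was low on replicate 1 and Orc6 on replicate 4. Among the probes used as levels, these were the dimmest of the group, and the lowest level that the software marked well above background was -6.31, -6.34, -5.95 and -5.56 on the 4 arrays. Orc2, Orc3 and Orc4, the other subunits of the core, averaged -2.78 ± 0.09, -2.08 ± 0.18 and -1.31 ± 0.06.

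Loading factors were detected as well. Cdc6, the ATPase that recruits the helicase, lay at -1.17, -1.16, -1.08 and -1.31 (-1.18 ± 0.09). Cdt1, which delivers the MCM ring, lay at -2.98, -3.21, -2.83 and -2.69, a 1.44-fold range with replicate 2 lowest and replicate 4 highest. Geminin, the product of Gmnn, binds Cdt1 and keeps it from loading the ring again after S phase begins. Gmnn lay at -1.41, -1.35, -1.39 and -1.34, a 1.05-fold range. The Cdt1 probe was the dimmer, averaging 161 units against 477 for Gmnn, and dimmer probes spread more on this array. Neither gene passed the variance test, and the difference in spread between them was not tested.

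The 6 subunits of the MCM helicase, the ring that unwinds DNA, were all above the 75th percentile on every array. Mcm2 lay at 4.01, 3.85, 3.94 and 3.83, from processed signals of 21187, 21545, 18079 and 13634 units (probe on rn4 chromosome 4, 122977553 to 122977612). Mcm3 lay at 2.51, 2.45, 2.50 and 2.43, and Mcm5 at 3.29, 3.25, 3.16 and 3.18. Each of these 3 genes varied by 1.05-fold to 1.13-fold between replicates. Mcm7 lay at 2.86, 2.72, 2.70 and 2.64, and Mcm6 at 0.41, 0.34, 0.52 and 0.54. Mcm4 lay at 1.70, 1.71, 1.52 and 1.44, a 1.20-fold range with replicates 1 and 2 above 3 and 4. The mean of the 6 subunits was 2.46, 2.39, 2.39 and 2.34 on replicates 1 to 4, a 1.09-fold range.

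Factors that turn the loaded ring into a helicase lay on both sides of the percentile. Cdc45, which binds the ring, lay at 2.29, 2.05, 2.21 and 2.07 (2.15 ± 0.12). The GINS subunits averaged 1.53 ± 0.08 for Gins1, -2.66 ± 0.10 for Gins2, -2.11 ± 0.05 for Gins3 and 0.02 ± 0.11 for Gins4. All 4 were detected on each array, although the probes of Gins2 differed in this. Cdc7, the kinase, lay at -0.70, -0.93, -0.93 and -0.72, and its activator Dbf4 at 0.11, 0.04, -0.12 and -0.15. The kinase was high on replicates 1 and 4 and the activator on 1 and 2. The pair therefore had no common order, in levels whose differences did not pass the variance test given further on. Mcm10, a scaffold of the firing step, averaged -1.35 ± 0.03. Ticrr, the gene outside the counts, lay at -1.89, -1.95, -2.03 and -1.87 (-1.94 ± 0.07).

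Polymerase alpha and primase form 1 complex, and the members differed in spread. Pola1, its catalytic subunit, lay at -3.76, -3.49, -4.33 and -3.95, a 1.78-fold range that was the widest of all members (probe on rn4 chromosome X, 80651404 to 80651463). Replicate 2 was its highest and replicate 3 its lowest. Pola2, the accessory subunit, lay at -3.22, -3.44, -3.06 and -3.09, with replicate 2 lowest and replicate 3 highest, the reverse of Pola1 at both ends. The primase genes Prim1 and Prim2 averaged 1.62 ± 0.10 and 1.19 ± 0.11. The 2 polymerase subunits therefore had no common order over the replicates, in levels whose differences did not pass the variance test given further on.

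Polymerase delta and epsilon copy the bulk of the genome. Pold1, the catalytic subunit of delta, lay at 0.84, 0.89, 0.85 and 0.84, a 1.04-fold range, the narrowest of all members (rn4 chromosome 1, between 95010792 and 95011164). Pold3, another subunit of delta, lay at -0.11, -0.30, -0.18 and -0.52, a 1.32-fold range, and Pold2 averaged 1.96 ± 0.05. Pole and Pole2, the catalytic subunit and the accessory subunit of epsilon, averaged -2.29 ± 0.07 and -3.33 ± 0.11. Both were lowest on replicate 3 with these probes, whereas the dimmer probes of Pole were lowest on replicates 4 and 2.

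The clamp and the 5 subunits of its loader were all detected. Pcna, the sliding clamp that tethers polymerases to DNA, lay at 2.44, 2.37, 2.37 and 2.42, a 1.05-fold range (rn4 chromosome 3, 120008997 to 120009056). Rfc1, the large subunit of the loader, averaged 0.80 ± 0.06. Rfc2, Rfc3, Rfc4 and Rfc5, its small subunits, averaged 0.12 ± 0.04, 1.61 ± 0.12, -0.90 ± 0.11 and -0.55 ± 0.07. The small subunits did not share an order: Rfc3 was highest on replicate 3 and lowest on 4, and Rfc4 was lowest on 1 and highest on 4. Neither of these genes passed the variance test. Of the RPA subunits, which coat single-stranded DNA, Rpa1 averaged -1.31 ± 0.06 and Rpa2 1.49 ± 0.09. Rpa3 lay at 1.08, 1.05, 1.12 and 0.76, with replicate 4 below the other 3.

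The 3 genes that finish lagging strand fragments lay above the percentile on every array. Fen1, the flap nuclease, lay at 2.71, 2.64, 2.53 and 2.57. Lig1, the ligase that seals the fragments, lay at 3.36, 3.37, 3.25 and 3.29 (rn4 chromosome 1, 73767369 to 73767428). Rnaseh2a, the catalytic subunit of the enzyme that removes RNA from DNA, lay at 1.96, 1.84, 1.92 and 1.88. Their ranges were 1.09-fold to 1.13-fold.

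For 6 members, Mcm2, Mcm3, Mcm5, Mcm7, Fen1 and Lig1, the probe used is printed on 10 spots of each array, which gives the error of a reading within an array. The SD between spots of an array was 0.03 to 0.09 log2 units, so the mean of the spots had a standard error of 0.011 to 0.028. The SD between arrays was 7.34 times that error for Mcm2, 5.41 times for Mcm7, 3.59 times for Mcm5 and 3.49 times for Fen1. It was 2.12 times for Lig1 and 1.81 times for Mcm3. A ratio above 1 says little by itself, since the spread between arrays includes labelling and hybridisation as well as the cultures, and these cannot be told apart.

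Replicate arrays differed little over the members. The median SD between arrays was 0.0927 log2 units for the members and 0.112 for all detected genes. An SD under 0.1 was found for 26 of 44 members (59.09%), against 42.91% of detected genes, and a range over 0.5 log2 units for 3 members (6.818%), against 14.73%. Those 3 were Pola1, Orc6 and Cdt1. Since SD rises as signal falls, it was also set against the median of detected genes in the same of 10 classes of level: 26 members (59.09%) lay below it, against 49.96% of detected genes. Between pairs of arrays, Pearson's r over the 44 members was 0.9967 to 0.9984 and over all detected genes 0.9928 to 0.9971, which are values across genes that share each library and not independent replicates.

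**Figure D2:**
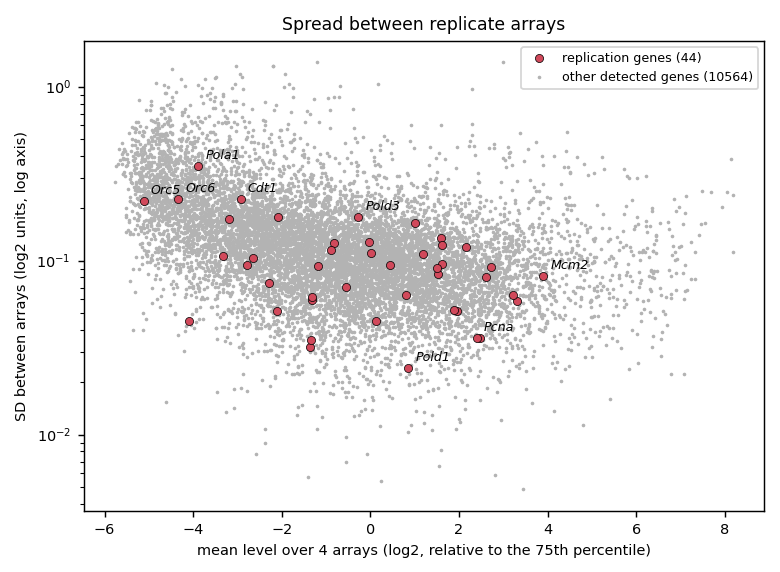
SD between the 4 arrays (y axis, log2 units on a log scale) against mean level (x axis, log2 relative to the 75th percentile) for 44 replication genes in red and 10564 other detected genes in grey. The members lie inside the cloud of other genes at each level, with Pola1 highest among them (SD 0.35) and Pold1 lowest (SD 0.02).

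No member passed the test of variance between replicates. For the 19400 probes detected on all arrays, limma compared the residual variance of each with a prior drawn from probes of similar signal (upper-tail F test, Benjamini-Hochberg adjustment at 0.05). Of 44 members 0 passed, against 0.16% of 10608 detected genes (17). At an unadjusted p under 0.05 the count was 0 of 44 members, against 5.78% of detected genes (613), and 1 of the 57 member probes detected on all arrays. The smallest p among the members was that of Pola1 (limma across all probes, adjusted p = 0.958, unadjusted 0.119), and the next were those of Rpa3 (unadjusted 0.121) and Pold3 (unadjusted 0.128). The SD of Pola1 was 1.70 times its prior. In 29 of 44 members (65.9%) the SD lay below the prior, against 57.9% of detected genes. With 4 arrays this test reaches only large differences in variance, so a p above the threshold shows neither that cultures had equal levels nor that a member varied no more than other genes of like signal.

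Relative to the 75th percentile, the mean of the members was similar on each array. Their mean level was -0.18, -0.20, -0.20 and -0.24 on replicates 1 to 4, a 1.05-fold range. Its range of 0.0669 log2 units was 0.0240 without replicate 4, and 1.06 with spike-in probes as scale, with means of 0.22, 0.19, -0.40 and -0.83. Replicate 4 was lowest for 18 members (40.91%) and highest for 8 (18.18%), against 28.04% and 32.3% of detected genes. Replicate 1 was highest for 15 members (34.09%) and lowest for 5 (11.36%), against 19.75% and 23.78%. The member mean was 0.0669 log2 units lower on replicate 4 than on replicate 1, while the mean of all detected genes was -0.79, -0.78, -0.80 and -0.75 on replicates 1 to 4. Replicate 4 also had the lowest 75th percentile of signal and the fewest detected genes (10919, against 11072 to 11632 on the others), and the part of this in the order of the arrays was not tested. In bulk RNA, fewer cells in S phase, less of these transcripts per cell, and labelling, hybridisation or scaling of an array cannot be told apart.

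**Figure D3:**
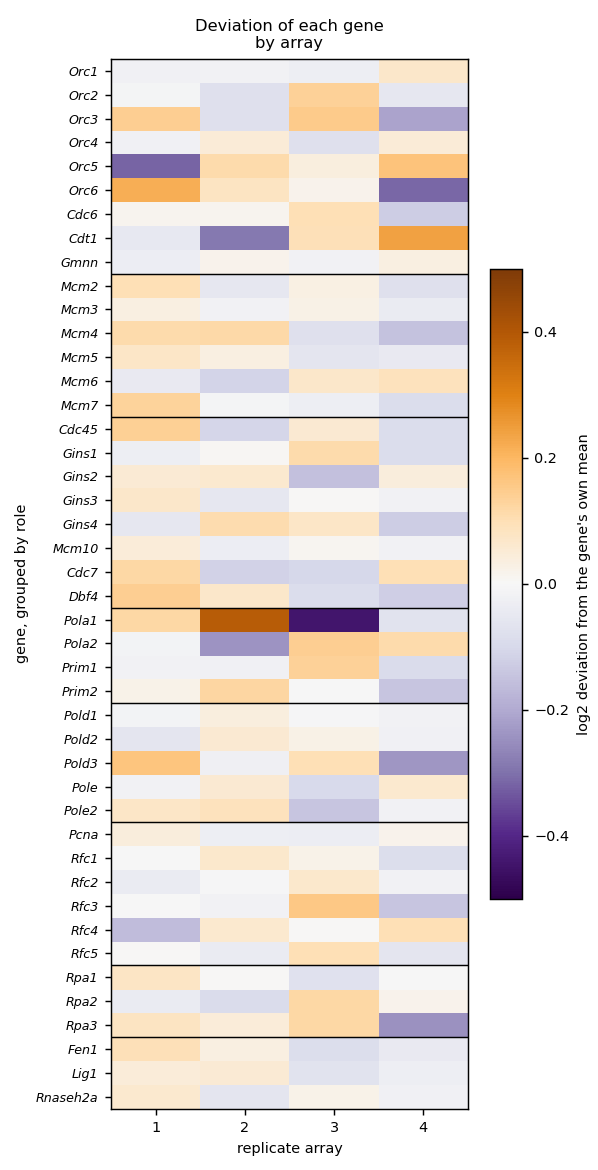
Deviation of each gene from its own mean on replicates 1 to 4 (colour, log2 units), with genes grouped by role. Most cells are pale, replicate 4 holds many of the purple cells (lowest for 18 of 44 members), and Pola1 has the strongest colours, high on replicate 2 and low on replicate 3.

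For 13 members the array carries several probes, which show how far a level depends on the probe. In 11 of them at least 2 probes were detected, and the brightest exceeded the dimmest by 0.12 to 5.76 log2 units, by over 1 log2 unit in 7 and by over 2 in 6. Such gaps are common on this array: the median was 2.26 for the members and 2.08 over 2776 detected genes with several detected probes. The brightest probe was the most downstream one by position and strand in 8 of 11 members (72.7%), against 67.2% of those genes.

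Mcm3 had the widest gap. Its second probe, 18818 bases upstream of the first on the unplaced rn4 sequence X_random, lay at -3.19, -3.98, -2.87 and -3.13, against 2.51, 2.45, 2.50 and 2.43 for the first. The first varied by 1.05-fold between replicates and the second by 2.15-fold. Mcm4 has 4 probes. The brightest 2, at 87183282 to 87183341 and 87183286 to 87183345 on rn4 chromosome 11, share 56 of 60 bases with an offset of 4, so they are nearly 1 probe. They lay at 1.70, 1.71, 1.52 and 1.44, and at 1.58, 1.56, 1.31 and 1.25, and thus fell into the same high and low replicates. Another Mcm4 probe, which begins 4934 bases upstream, lay at -1.60, -1.82, -1.58 and -1.72, and did not share that split. The last was not well above background on any array.

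Other second probes shared the order of the first or did not. For Dbf4 the second lay at -2.27, -2.41, -2.54 and -2.59, in the same order of replicates as the first. Rpa3's second probe, at 0.59, 0.45, 0.60 and 0.28, again had replicate 4 lowest and replicate 3 highest. Mcm2's second probe, at 1.69, 1.53, 1.65 and 1.56, was likewise highest on replicate 1. For Mcm5 the second lay at 0.88, 0.97, 0.95 and 1.05, with replicate 4 highest and 1 lowest, whereas the first was highest on replicate 1. Lig1's second, at 2.26, 2.41, 2.33 and 2.48, was highest on replicate 4 too. The dimmer probes of Orc3, Rpa1 and Pole averaged -3.22 ± 0.14, -1.70 ± 0.18, and, for the pair of Pole, -4.56 ± 0.25 and -5.07 ± 0.23. Detection also depended on the probe in Orc4, whose other probes were detected on 3 and 2 arrays, and in Gins2, whose second was detected on 3. The calls of these genes and of Mcm4 were the ones lost when every probe was required.

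**Figure D4:**
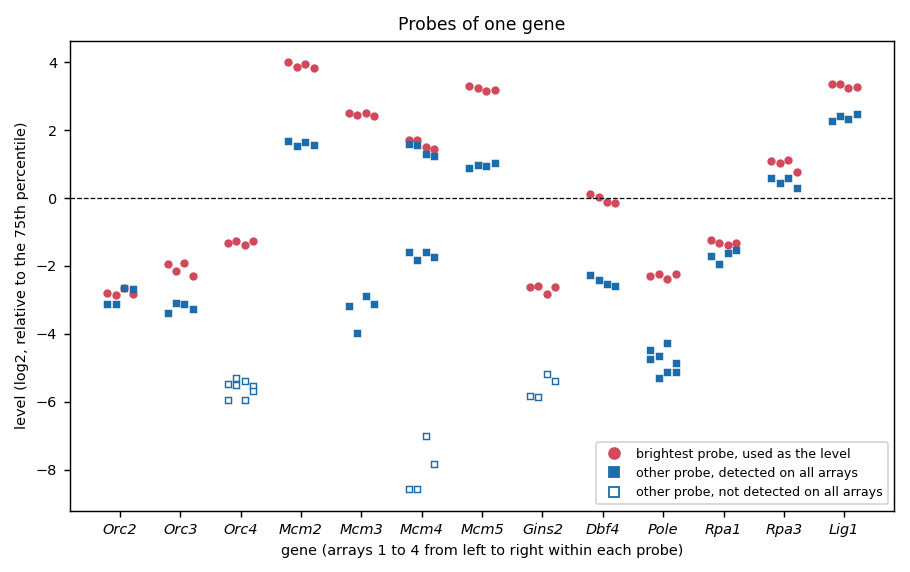
Levels of every probe (y axis, log2 relative to the 75th percentile) of the 13 members with several probes, with arrays 1 to 4 from left to right within each probe. Red circles are the brightest probe, blue squares the others, open where not detected on all arrays; Mcm3 shows the widest gap (5.76 log2 units) and Orc2 the narrowest (0.12).

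Most genes of the related lists were also expressed. Over 8 lists of other replication factors, S phase regulators and DNA enzymes, 98 of 108 genes on the array (90.7%) were detected. Of these genes, 0 passed the variance test of limma. Other subunits and loaders were detected in 14 of 15 cases, with Pold4 at 0.53 ± 0.19, Pole3 at 1.45 ± 0.21 and Rnaseh2b at -0.17 ± 0.13. Pole4, the partner of Pole3 in polymerase epsilon, was not well above background on any array with its 1 probe. Of the fork protection and firing factors 12 of 13 were detected, with Timeless at -1.03 ± 0.05 and Clspn at -3.65 ± 0.19, and without Mcmdc2. Enzymes that supply deoxynucleotides were detected in 11 of 12 cases. The ribonucleotide reductase genes Rrm1 and Rrm2 lay at 3.24 ± 0.10 and 4.08 ± 0.13. Rrm2b, a subunit known from DNA damage responses, was not well above background with its 1 probe. Whether the probes of Pole4 and Rrm2b had failed was not tested.

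Chromatin and cohesion factors that follow the fork were detected in 12 of 14 cases, with the histone chaperone genes Chaf1a at -0.54 ± 0.01 and Chaf1b at 1.32 ± 0.06. Dnmt1, the maintenance methyltransferase, was not well above background on any array with its 1 probe, and Supt16h was detected on 3 arrays. Whether either probe had failed was not tested. Of 29 genes that control entry into S phase 26 were detected. E2f1 and E2f2 lay at 1.29 ± 0.11 and 1.72 ± 0.10, E2f3 at -3.68 ± 0.06 and E2f4 at 0.73 ± 0.07. The exceptions were Cdk6, Skp2 and Cdkn1c, with Skp2 detected on 3 arrays and Cdk6 on 1. All 6 topoisomerases and all 8 factors of mitochondrial DNA replication were detected, and 9 of 11 repair and translesion polymerases, without Poli and Dntt. The last is the polymerase of developing lymphocytes. Polb, the main polymerase of base excision repair, lay at -3.54 ± 0.12, and Polg, which copies mitochondrial DNA, at 0.57 ± 0.08. Polm, an end-joining polymerase, lay at 3.72, 3.39, 3.40 and 4.42, with replicate 4 highest.

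Meiotic DNA factors, which act in germ cells, were detected in 2 of 12 cases. Msh5 lay at -4.57 ± 0.34 and Meiob at -3.63 ± 0.23. Spo11, Dmc1, Sycp1, Sycp2, Sycp3 and Smc1b were not well above background on any array. Rec8, Hormad1, Msh4 and Tex11 were detected on 1 to 3 arrays, which did not meet the rule.

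**Figure D5:**
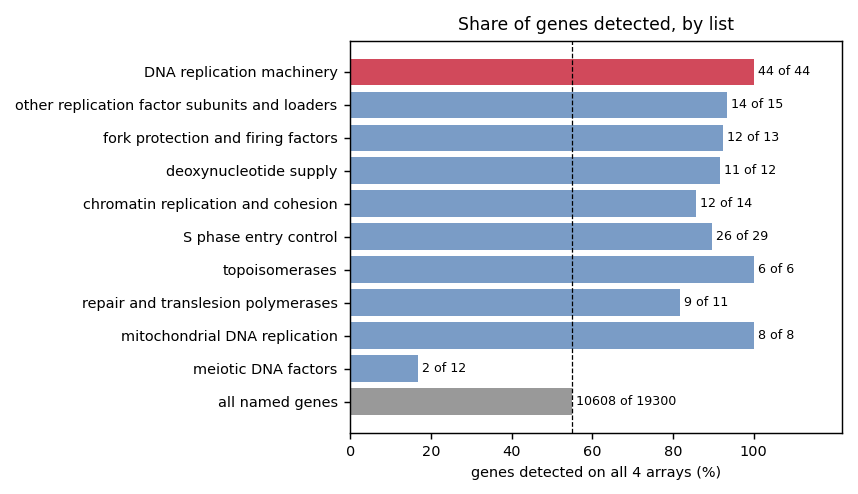
Share of genes detected on all 4 arrays (x axis, %), for the 44 members in red, 9 lists of related genes in blue and all named genes in grey (dashed line at 55%). The counts at the bars are detected genes of genes on the array; the meiotic list, with 2 of 12, is below the line and the other lists are above it.

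Markers of macrophages and of other cell types were read as a check of the label. All 12 macrophage genes were detected, with Cd68 at 4.74 ± 0.05, Csf1r at -0.02 ± 0.10 and Spi1 at -0.43 ± 0.12. Later in the list, Pparg lay at 3.86 ± 0.19 and, chosen after its values were seen, Msr1 at -3.42 ± 0.19. The summed signal of the 12 genes was 332490 to 510894 units over the arrays. None of 6 epithelial genes was detected on all arrays (summed signal 44.1 to 72.2 units), with Epcam and Cdh1 not well above background on any. Of the 5 genes on the array for each type, 2 were detected for T cells (Cd3d and Lck, sum 200.2 to 296.8), 2 for B cells (Cd79a and Pax5, sum 294.1 to 330.0), 2 for fibroblasts (Col1a2 and Dcn, sum 308.6 to 498.2) and 3 for endothelium (Pecam1, Cdh5 and Vwf, sum 3322 to 4067). Among those detected, Vwf lay at 1.23 ± 0.27, Pecam1 at -0.70 ± 0.10, Pax5 at -2.22 ± 0.29, Dcn at -2.24 ± 0.18 and Cd3d at -3.42 ± 0.24, so that Vwf was above the percentile on every array. Cd3e, Ms4a1, Col1a1 and Kdr, from the same lists, were not well above background on any array. The part of these genes in the members' values was not tested.

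The member probes lay on many chromosomes. On rn4, chromosome 19 held 6 of 44 member probes (13.64%: Orc6, Cdt1, Mcm5, Gins2, Gins3 and Rnaseh2a), against 2.922% of detected genes, and chromosome 12 held 5 (11.36%: Mcm7, Pole, Rfc2, Rfc3 and Rfc5), against 3.384%. Chromosome 10 held 2 (4.545%) against 8.475%, chromosome 7 held 1 (2.273%) against 6.231%, and chromosome 1 held 5 (11.36%) against 12.11%. In the RefSeq table, 12 of 38 members (31.58%) had a gene on the other strand starting within 1000 bases in the opposite direction, against 17.77% of detected genes. Such neighbours can share a promoter region. Of the 9 neighbours named on the array 8 were detected, against 55% of all named genes. Among the 8 were Ufd1 beside Cdc45 (0.70 ± 0.05), Prdx2 beside Rnaseh2a (3.25 ± 0.06), Vps35 beside Orc6 (0.03 ± 0.09) and Ap4m1 beside Mcm7 (-4.35 ± 0.15). The exception was Zswim9 beside Lig1. These shares are descriptions, found after the values were seen and not tested.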

How the data were processed

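Total RNA of the 4 samples had been labelled with Cy3 for one-colour Agilent rat arrays, as the labels' protocols say. Version 11.0.1.1 of Agilent Feature Extraction read them, per the submitters' processing notes. Per the file headers, the deposited values are spot intensity in linear fluorescence units, background-corrected by that software and without scaling between arrays. The deposited flags for detection and outlier spots were used as other values. All arrays lay on 1 slide and were read in 1 scan, so no batch could be tested, and the number of arrays limits the precision.

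Non-control spots (58717, for 45598 probes, none saturated) were used. Spots marked non-uniform or population outliers were left out, which removed 15 of 492 member spots and no member level. Levels are log2 processed signal relative to the 75th percentile of the array, averaged over spots of a probe, and the brightest detected probe stands for a gene. Accessions and symbols were matched to RefSeq names of GRCr8, which named 19300 genes. Probe positions are on rn4 as the files give them, without exon annotation. The variance test used limma (version 3.58.1, R version 4.3.3) with a robust, trended prior and was tested on simulated data. Other steps used Python 3.11.15 with pandas 2.3.3, numpy 2.4.6, matplotlib 3.10.9 and scipy 1.17.1.

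The members and lists were chosen with earlier results of these data known. All members are reported. From other lists, the first 4 genes, the detected or undetected genes where these were 5 or fewer, and any gene past the variance test could be named; 1 marker gene is not reported here. Classes of level, spots per probe, promoter words, chromosomes, probe positions and neighbouring genes were described after values were seen. Alternatives were a laxer detection flag, fewer arrays (at least 2), every probe required, marked spots kept, normexp (offset 50), quantile scaling, scaling on detected probes or on spike-ins, the mean of a gene's probes, no filter on dim probes, other priors, and leaving out each replicate.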

Additional observations from a re-analysis of the deposited data

Results flagged for a closer look

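In 2 of 53 results examined (3.77%), the 44 members among them, 1 replicate stood apart from the other 3, with a gap to the nearest above Dixon's 95% critical value as a share of the range. Chance gives about 1 in 20, or 2.65 here. Orc1 was highest on replicate 4, at -4.02 against -4.11 to -4.10 on the others, a gap of 0.889 of a range of only 0.0958 log2 units. Gins2 was lowest on replicate 3, at -2.81 against -2.62 to -2.60 on the others, a gap of 0.908 of a range of 0.216 log2 units. Its second probe was instead highest on replicate 3 and was detected on 3 arrays. The part of chance or of the array in these values was not tested.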

How the results depend on the processing

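All 44 members were detected under the laxer flag, on at least 2 arrays, with marked spots kept and without single replicates (44 to 44), and 41 with every probe required. Related genes detected numbered 100 in the main setting, 89 to 106 under the other settings and 100 to 102 without single replicates. The count past the variance test was 0 under all 11 alternatives, leaving out replicates included (0 to 0).

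The median member level of -0.0028 became -0.343 with the mean of a gene's detected probes in place of the brightest, and lay between -0.0325 and 0.0392 without single replicates, so its sign carries nothing. The median SD between arrays of 0.0927 was 0.0667 to 0.0920 without single replicates. With spike-in probes as scale it became 0.503 for the members and 0.496 for all detected genes. The range of the member mean became 1.06 log2 units with that scale, with means of 0.22, 0.19, -0.40 and -0.83 on replicates 1 to 4, because the spike-ins moved each array by 0.40, 0.39, -0.20 and -0.59 for all genes. That range, 0.0669 otherwise, was 0.0240 without replicate 4 and 0.0240 to 0.0669 over the replicates left out. Statements on replicates therefore hold relative to the 75th percentile.

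No paired analysis was possible because all samples belong to 1 group. Dim probes such as those of Orc5 and Orc6 lie near the limit of detection, and 1 probe stands behind 31 members.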
